A study of Mus musculus with 4 samples.

Results

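Testis fate in the mouse gonad is set by Sry, a Y-linked transcription factor that acts briefly in supporting cell precursors. Sry raises Sox9, which commits these cells to the Sertoli fate. Sox8 is a close relative of Sox9 that acts beside it, and Ptgds makes prostaglandin D2, a signal that helps to sustain Sox9. Gadd45g is an adaptor that activates the kinase Map3k4 upstream of p38, a pathway needed for Sry expression, and Nr0b1 (Dax1) is an X-linked orphan nuclear receptor whose dosage affects testis formation. These 7 genes, Sry, Sox8, Sox9, Ptgds, Gadd45g, Map3k4, and Nr0b1, were picked by symbol from the 31053 gene identifiers of the count matrices, not by a cutoff on their values. All 7 were found, and earlier results of these data were known when they were chosen.

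The genes were followed in single cells of 4 XY libraries, 1 for each condition. The 3 in vivo libraries were gonads of ICR mice at E10.5, E11.5, and E12.5. The last was a day 6 (D6) culture of gonadal somatic cells made from an XY embryonic stem cell (ESC) line, N271S9C, labeled C57BL/6J with the transgenes "Nr5a1-hCD27a and Sox9-2A-CGFP". The methods write the first as Nr5a1-hCD271, place the fluorescent reporter CGFP with a 2A peptide at the 3′ end of Sox9, and give a cross with 129X1/SvJ as the origin of the line. The ESCs were first turned into epiblast-like cells, then treated in steps with CHIR99021, BMP4, and EGF, with retinoic acid, Sonic hedgehog, PD0325901, EGF, and BMP4, and with BMP4, FGF9, and the Wnt inhibitor IWR1. At D6, magnetic sorting enriched, but did not isolate, cells with the Nr5a1 reporter. The E10.5 dissection included dorsal mesenchyme, whereas the mesonephros was removed in the later stages. The in vivo libraries were made with one version of the droplet kit and the D6 library with a later one. Kit, strain, culture, and sort thus all differed between D6 and the in vivo libraries, and their effects cannot be told apart. The number of embryos pooled was not found in the sources used here. With 1 library for each condition there was no replicate check and no test between conditions, and the intervals given are 95% intervals that cover counting error only.

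Cells within the limits of the methods on detected genes and mitochondrial UMIs were retained, where a UMI is 1 counted RNA molecule. Values listed without a stage follow the order E10.5, E11.5, E12.5, D6, or its last 3 where only 3 are listed. The limits left 3837, 2101, 2764, and 2285 cells with medians of 8167, 11926, 10946, and 4607 UMIs. Levels are given as CPM, the UMIs of a gene per 1000000 UMIs of the cells in question. Nr5a1 encodes SF1, the nuclear receptor that marks gonadal somatic lineages, and cells with at least 1 Nr5a1 UMI, called Nr5a1-positive, numbered 72, 730, 883, and 664. At least 1 UMI of Ddx3y, Eif2s3y, Kdm5d, or Uty, all Y-linked, was found in 55.7%, 72.6%, 80.5%, and 60.7% of cells, and Xist, the RNA that coats a silenced X, had between 2 and 29 UMIs per library.

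In mm10 (GRCm38) coordinates with GENCODE M21 annotation, Sry (ENSMUSG00000069036) is at chrY:2662471-2663658 on the minus strand, Sox8 (ENSMUSG00000024176) at chr17:25565892-25570686 on the minus strand, and Sox9 (ENSMUSG00000000567) at chr11:112782224-112787760 on the plus strand. Ptgds (ENSMUSG00000015090) is at chr2:25466709-25470046 on the minus strand and Gadd45g (ENSMUSG00000021453) at chr13:51846678-51848468 on the plus strand. Map3k4 (ENSMUSG00000014426) is at chr17:12227621-12318796 on the minus strand, and Nr0b1 (ENSMUSG00000025056) at chrX:86191764-86195947 on the plus strand. No other gene of the matrices overlapped any of the 7. Nr5a1 (ENSMUSG00000026751, chr2:38692656-38714542, minus strand) overlaps Nr5a1os on the other strand. In vivo, the RNAs of Sox8, Ptgds, and Gadd45g were found in the same cells as Sox9, and that of Nr0b1 went with Sox9 at E12.5 more than at E11.5. The promoter windows of these 4 genes are shown 5′ to 3′ from 250 bases before to 50 after the RefSeq start (GRCm38.p6). They lie at chr17:25570637-25570936 (minus), chr2:25469700-25469999 (minus), chr13:51846425-51846724 (plus), and chrX:86191525-86191824 (plus), and the capitals mark AGGTCA, a core element bound by SF1 and other nuclear receptors, and the TATA box TATAAA.
Sox8: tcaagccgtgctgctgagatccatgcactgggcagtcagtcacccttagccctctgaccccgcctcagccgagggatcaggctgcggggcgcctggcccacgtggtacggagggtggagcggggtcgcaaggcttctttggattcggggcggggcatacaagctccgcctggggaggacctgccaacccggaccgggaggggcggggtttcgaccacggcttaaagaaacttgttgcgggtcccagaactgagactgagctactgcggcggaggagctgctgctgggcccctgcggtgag
Ptgds: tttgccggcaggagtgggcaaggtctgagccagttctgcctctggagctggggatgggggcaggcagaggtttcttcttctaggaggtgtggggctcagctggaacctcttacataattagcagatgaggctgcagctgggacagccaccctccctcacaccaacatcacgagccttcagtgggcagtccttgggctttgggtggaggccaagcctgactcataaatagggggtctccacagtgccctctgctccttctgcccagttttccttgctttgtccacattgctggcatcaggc
Gadd45g: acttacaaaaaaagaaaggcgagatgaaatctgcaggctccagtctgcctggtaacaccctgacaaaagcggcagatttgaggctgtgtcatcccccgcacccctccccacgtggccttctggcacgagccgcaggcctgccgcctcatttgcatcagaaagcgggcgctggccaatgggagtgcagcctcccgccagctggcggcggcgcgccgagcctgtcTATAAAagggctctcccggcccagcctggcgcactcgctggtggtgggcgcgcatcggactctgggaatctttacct
Nr0b1: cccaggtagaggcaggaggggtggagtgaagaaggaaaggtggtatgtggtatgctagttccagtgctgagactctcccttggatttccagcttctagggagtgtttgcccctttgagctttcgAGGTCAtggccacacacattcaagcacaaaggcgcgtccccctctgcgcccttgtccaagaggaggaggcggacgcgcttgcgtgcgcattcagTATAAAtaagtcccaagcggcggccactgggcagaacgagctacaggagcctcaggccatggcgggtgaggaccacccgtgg
Both strands were searched for these letters, for the SOX core ACAAT, and for the GATA element AGATAA. The search found only the capitals in these 4 windows. Of 32851 promoters, 31.0% held the SOX core, 16.3% the SF1 element, 11.2% the GATA element, and 13.6% the TATA box. The Sry window, at chrY:2663609-2663908, held 2 overlapping SOX cores on opposite strands, and that of Map3k4 held none of these motifs. A match is a string of letters and not a site shown to be bound.

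Sry was at the limit of detection in every library. No UMI was found among 3837 cells of E10.5 and 2764 of E12.5. The E11.5 library held 8 UMIs in 7 cells, and D6 held 4 in 3 cells. A count of 0 allows a share of cells with a UMI of up to 0.0782% at E10.5 and 0.109% at E12.5. In these counts, therefore, Sry was seen in vivo in the E11.5 library alone, at 0.325 CPM (0.140 to 0.640). The assay counts RNA at its 3′ end, and Sry has 1 annotated transcript. Reads beyond its annotated span would not be counted, and whether any were lost was not tested. Of the 7 cells at E11.5, 6 were Nr5a1-positive, all 7 held Gadd45g, 5 held Sox9, and 3 held Ptgds. The 5 with Sox9 had between 1 and 23 Sox9 UMIs and carried supporting cell markers, and none of the 7 held Sox8. The 3 cells at D6 were all Nr5a1-positive and held neither Sox9, Sox8, nor Ptgds, and 1 of them had 7 Gadd45g UMIs. With 7 and 3 cells, no relation between Sry and its targets can be read from either library.

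Sox9, Sox8, and Ptgds were all higher at E11.5 than at E10.5 and differed in the later libraries. In all retained cells Sox9 had 41.2 CPM (39.0 to 43.5), 208 (203 to 214), 102 (99.1 to 106), and 37.9 (34.5 to 41.5). Sox8 had 2.09 (1.62 to 2.65), 10.4 (9.20 to 11.8), 9.16 (8.17 to 10.2), and 0.504 (0.185 to 1.10), the last from 6 UMIs. Ptgds had 0.215 (0.0866 to 0.444), 82.4 (78.8 to 86.1), 272 (267 to 278), and 43.5 (39.8 to 47.4). Thus Sox9 was highest at E11.5, Sox8 was at a like level in the later in vivo stages and was down to 6 UMIs at D6, and Ptgds was highest at E12.5. For Sox8 the difference between E11.5 and E12.5 was within counting error, with a log2 ratio of -0.19 (-0.43 to 0.06).

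Gadd45g, the adaptor, had 49.9 CPM (47.5 to 52.4), 156 (151 to 161), 61.7 (59.1 to 64.4), and 119 (113 to 126) over the 4 libraries. Its partner Map3k4 had 16.9 (15.6 to 18.4), 19.5 (17.8 to 21.4), 22.0 (20.5 to 23.6), and 52.9 (48.9 to 57.2). Nr0b1 had 0.923 (0.623 to 1.32), 23.1 (21.2 to 25.1), 13.4 (12.2 to 14.7), and 15.5 (13.4 to 17.9). From E10.5 to E11.5, 5 of the 7 genes were at least 2-fold higher and 0 lower, where 10.1% of all 9806 genes with a mean of at least 5 CPM were higher and 5.99% lower. These were Sox8, Sox9, Ptgds, Gadd45g, and Nr0b1, of which Sox8, Ptgds, and Nr0b1 passed the limit of 5 CPM only through E11.5, while Map3k4 changed 1.15-fold and Sry did not pass. The dissected tissue also differed between these stages.

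Between the later libraries fewer of the genes differed. From E11.5 to E12.5, over all retained cells, 1 of the 7, Ptgds, was at least 2-fold higher, beside 1.84% of all genes, and 2, Sox9 and Gadd45g, were lower, beside 1.7%. At D6 against E12.5, 1 of the 5 that passed the limit, Map3k4, was higher, beside 26.4%, and 2, Sox9 and Ptgds, were lower, beside 7.64%. As a share, 1 of 5 was no more than that of all genes, and the Map3k4 log2 ratio of 1.27 was 0.92 with DESeq2 size factors. Sox8 did not pass, with 313 UMIs at E12.5 and 6 at D6 and a log2 ratio of -4.18 (-5.64 to -3.05). At D6 against E11.5, Map3k4 was again higher, beside 27.5%, and Sox8 and Sox9 were lower, beside 5.89%, with Sox8 passing the limit only through E11.5. These comparisons share libraries and are not independent of each other.

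**Figure D1:**
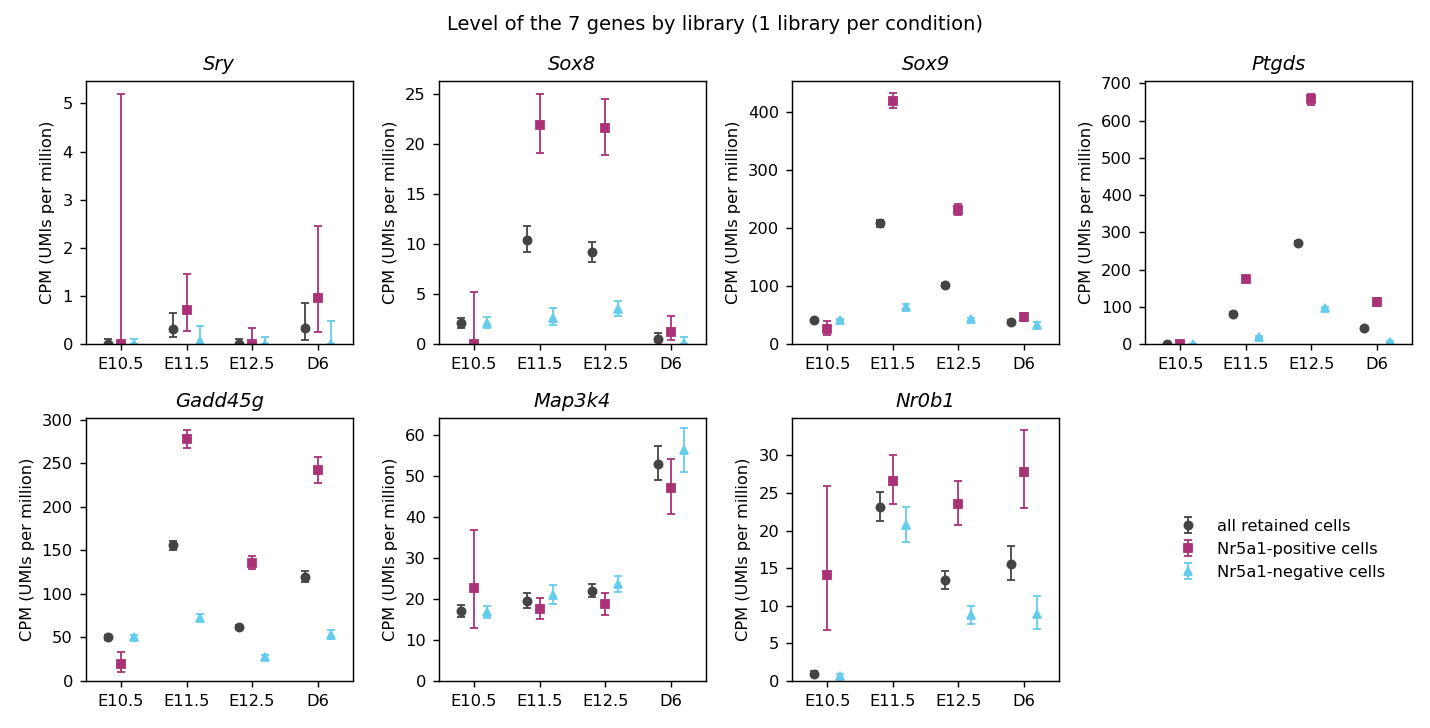
Level of each gene in CPM (linear axis from 0) in the 4 libraries, for all retained cells (circles), Nr5a1-positive cells (squares), and Nr5a1-negative cells (triangles), with exact Poisson 95% intervals. Sox9 was highest in Nr5a1-positive cells of E11.5 (420 CPM), Ptgds in those of E12.5 (657 CPM), and Map3k4 was near 50 CPM in all 3 sets of D6 cells.

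At E10.5 Nr5a1-positive cells held 1.34% of the Sox9 UMIs and 2.18% of the UMIs of all genes. A Sox9 UMI was in 18.1% of them (9.98 to 28.9) and in 20.5% (19.3 to 21.9) of Nr5a1-negative cells. Sox8 had 0 UMIs in them, with an upper limit of 5.21 CPM, against 2.14 CPM in Nr5a1-negative cells. Neither gene thus set these few cells apart. Cells were put in a class when they held at least 3 markers of it and more than of any other class, so that each class is a range on a marker count and not a proven cell type. None of the 7 genes was a marker, and 65.5%, 22.2%, 6.62%, and 36.7% of cells stayed unassigned. At E10.5 Sox9, which also directs cartilage formation, had 121 CPM (111 to 132) in 437 cells with sclerotome markers, which held 39.1% of its UMIs and 11.4% of the cells, while unassigned cells held 42.5% of the UMIs. Sox8 had 40.9 CPM (24.3 to 64.7) in 38 cells with neural crest markers. The 72 Nr5a1-positive cells at E10.5 held 18 UMIs of Sox9, 14 of Gadd45g, 16 of Map3k4, and 10 of Nr0b1, and 0 of Sry, Sox8, and Ptgds. Of the 30 Nr0b1 UMIs at E10.5, 33.3% were in these cells, which made up 1.88% of the library.

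From E11.5 on, the male-pathway genes were concentrated in Nr5a1-positive cells. Their median depth, 13157, 10947, and 5834.5 UMIs, was above that of Nr5a1-negative cells, 10914, 10941, and 4232, by little at E12.5. Of cells with supporting markers, 349 of 449, 433 of 581, and 61 of 66 were Nr5a1-positive. The Nr5a1-negative cells thus included the rest of that class. At E11.5, Sox9 had 420 CPM (407 to 433) in Nr5a1-positive and 64.6 (60.6 to 68.9) in Nr5a1-negative cells, Ptgds 175 (167 to 183) and 19.6 (17.4 to 22.0), Sox8 21.9 (19.1 to 25.0) and 2.66 (1.89 to 3.63), and Gadd45g 278 (268 to 288) and 72.8 (68.5 to 77.3). These 4 of the 7 genes were at least 2-fold higher in Nr5a1-positive cells, beside 5.72% of all genes, and 0 were lower, beside 3.09%. At E12.5 there were 5, with Nr0b1 added, beside 6.14%, and 0 lower, beside 4.03%. In both counts Sox8 passed the limit of 5 CPM only through the Nr5a1-positive cells. At D6 there were 3, Ptgds, Gadd45g, and Nr0b1, beside 6.33%, and 0 lower, beside 5.55%. Sox9 was 1.40-fold higher in Nr5a1-positive cells of D6, at 46.5 CPM (40.2 to 53.5) against 33.2 (29.3 to 37.5), which is the smallest ratio of Sox9 among the 3 libraries. Ptgds at D6 had 114 CPM (104 to 125) against 5.56 (4.02 to 7.49), or 20.5-fold. Map3k4 showed no such concentration, with log2 ratios of -0.26 (-0.54 to 0.01), -0.34 (-0.58 to -0.10), and -0.26 (-0.51 to -0.01).

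Within Nr5a1-positive cells, Sox9 was lower and Ptgds higher at E12.5 than at E11.5. Sox9 went from 420 to 232 CPM (223 to 241), a log2 ratio of -0.86 (-0.93 to -0.78), while the share of cells with a Sox9 UMI was 62.9% (59.3 to 66.4) and 60.2% (56.9 to 63.5). Ptgds went from 175 to 657 CPM (642 to 673), a log2 ratio of 1.91 (1.83 to 1.99), and its share from 39.7% (36.2 to 43.4) to 50.2% (46.8 to 53.5). Gadd45g went from 278 to 136 CPM (129 to 143), a log2 ratio of -1.03 (-1.12 to -0.94). Sox8 at 21.5 CPM (18.8 to 24.5), Map3k4 at 18.6 (16.1 to 21.4), and Nr0b1 at 23.5 (20.7 to 26.6) at E12.5 differed from E11.5 by log2 ratios whose intervals held 0. For Nr0b1 this depended on the scaling, with -0.18 (-0.44 to 0.07) as given and -0.27 (-0.52 to -0.01) with TMM factors. Hence 1 gene, Ptgds, was at least 2-fold higher, beside 2.22% of all genes, and 1, Gadd45g, at least 2-fold lower, beside 1.78%. In cells with at least 2 Nr5a1 UMIs the Gadd45g log2 ratio was -0.92, which is not 2-fold. When every cell was thinned to 2000 UMIs, the share with Sox9 went from 41.6% to 30.7% and that with Ptgds from 20.1% to 40.8%. Of Nr5a1-positive cells, 47.8% at E11.5 and 49.0% at E12.5 had supporting markers, 28.6% and 41.3% had interstitial markers, and 15.3% and 6.00% were unassigned.

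Nr5a1-positive cells of D6 had less Sox8, Sox9, and Ptgds than those of E12.5 and more Map3k4. Sox8 had 1.20 CPM (0.389 to 2.80) from 5 UMIs, a log2 ratio to E12.5 of -4.17 (-5.80 to -2.92). For Sox9 the log2 ratio was -2.32 (-2.54 to -2.11), and 15.7% (13.0 to 18.7) of cells held a UMI. For Ptgds it was -2.53 (-2.67 to -2.39), with 22.0% of cells (18.9 to 25.3). Thinned to 2000 UMIs per cell, Sox9 was in 7.40% and Ptgds in 12.6% of D6 cells, so that the shares stayed below both in vivo stages at equal depth. Map3k4 had 47.0 CPM (40.6 to 54.0), a log2 ratio of 1.33 (1.04 to 1.63), and was higher in Nr5a1-negative cells of D6 as well, at 56.1 (51.0 to 61.7). In this comparison 1 gene was at least 2-fold higher, beside 25.5% of all genes, and 3 were lower, beside 7.34%, with Sox8 passing the limit of 5 CPM only through E12.5. The gene that was higher, Map3k4, had a log2 ratio of 0.96 with DESeq2 size factors, below 2-fold.

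Gadd45g and Nr0b1 were not 2-fold lower at D6, unlike Sox9. Gadd45g had 242 CPM (228 to 258) in Nr5a1-positive cells, between its levels at E12.5 and E11.5, with a log2 ratio to E12.5 of 0.83 (0.72 to 0.95). Nr0b1 had 27.8 CPM (23.0 to 33.3), and its log2 ratio of 0.24 (-0.09 to 0.57) held 0 and was negative under TMM scaling, at -0.06. TMM scaling lowered every D6 ratio to E12.5 by 0.31 on the log2 scale and changed the share of all genes at least 2-fold higher to 17.5% and lower to 12.7%. Under it the log2 ratio of Gadd45g was 0.53, and that of Map3k4 was 1.03. Against E11.5, 1 of the 7 genes in Nr5a1-positive cells was at least 2-fold higher at D6, beside 27.2% of all genes, and 2, Sox8 and Sox9, were lower, beside 6.02%, with Sox8 passing the limit only through E11.5. Ptgds had a log2 ratio to E11.5 of -0.62 (-0.77 to -0.47), which became -1.01 with TMM factors and -1.07 with DESeq2 size factors and so crossed the 2-fold limit. Map3k4 had 1.43 (1.12 to 1.73), and 0.97 with DESeq2 size factors. Cells with supporting markers were 9.19% of Nr5a1-positive cells at D6, and those with steroidogenic markers 27.1%, against 0.566% at E12.5. The sort at D6 used the Nr5a1 reporter, and Nr5a1 itself had 459 CPM (439 to 481) in these cells against 143 (136 to 151) at E12.5. The CGFP insert lies at the end of Sox9 where this assay counts RNA, and its part in the D6 value of Sox9 was not tested.

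The lower Sox9 and higher Ptgds of E12.5 were also seen inside the class with supporting markers, the class defined by genes of Sertoli cells (449, 581, and 66 cells). In it Sox9 had 775 CPM (752 to 798), 441 (425 to 457), and 251 (207 to 303), and was detected in 410, 552, and 46 of these cells. Ptgds had 353 (338 to 369), 1373 (1346 to 1402), and 501 (436 to 571), in 72.6%, 96.7%, and 74.2% of cells. Thus at D6 the Sox9 level of this class was below both in vivo stages, whereas that of Ptgds lay between them. These levels are scaled by all UMIs only. In Nr5a1-positive cells TMM factors moved D6 ratios to E11.5 by -0.39 on the log2 scale. Whether Ptgds of this class stays above E11.5 under such scaling was not tested. Sox8 had 42.5 CPM (37.3 to 48.3), 43.8 (38.9 to 49.1), and 6.86 (1.41 to 20.0), the last from 3 UMIs. Gadd45g had 436 CPM (419 to 454), 240 (229 to 252), and 779 (699 to 867), highest at D6. Nr0b1 had 24.3 (20.4 to 28.8), 33.8 (29.6 to 38.5), and 59.4 (38.8 to 87.1). Of the 66 cells at D6, 16 held exactly 3 supporting markers, and another 71 cells of the library stood 1 marker below the limit. With at least 5 markers required, 30 cells remained at D6, with 243 CPM of Sox9 (184 to 315), 593 of Ptgds (498 to 700), and 750 of Gadd45g (644 to 870).

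**Figure D2:**
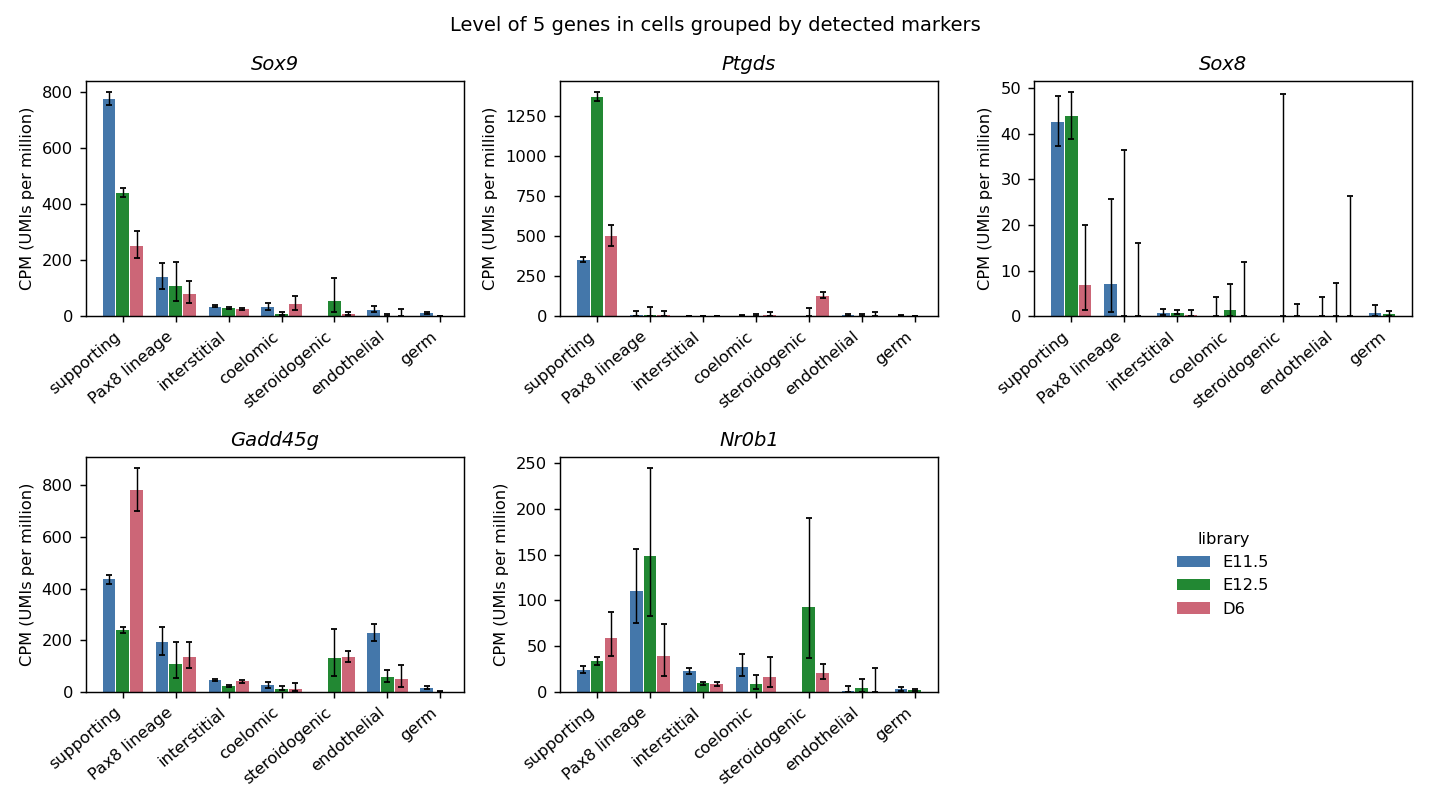
Level in CPM (bars, linear axis from 0, with exact Poisson 95% intervals) of 5 genes in cells grouped by detected markers at E11.5, E12.5, and D6. Sox9, Ptgds, and Sox8 were highest in cells with supporting markers in every library, and Ptgds at D6 was also present in cells with steroidogenic markers (130 CPM). Nr0b1 in vivo had its highest bars in the small Pax8-lineage class. At E12.5 that class cannot be ranked firmly against the few cells with steroidogenic markers. The E11.5 library had 0 cells with steroidogenic markers.

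In the other classes the 3 male-pathway genes were lower in vivo, but Sox9 was not confined to cells with supporting markers. In cells with interstitial markers Sox9 had 34.6 CPM (31.2 to 38.4), 28.7 (26.1 to 31.5), and 25.9 (21.8 to 30.4), with a UMI in 23.6%, 20.3%, and 10.1% of cells. In germ cells, which do not use the Sertoli program, Sox9 had 0.936 CPM (0.404 to 1.84) at E12.5, in 1.79% of 446 cells with a median of 18636.5 UMIs. The interstitial share at E12.5, at a median of 9743 UMIs, was above that of germ cells, as was that at E11.5, where 7.89% of 190 germ cells held Sox9. D6 had 2 cells with germ cell markers, too few to compare. Ptgds in interstitial cells had 1.14 CPM, 3.23 (2.40 to 4.26), and 2.13, and at E12.5 this was close to the 3.04 (1.99 to 4.46) of germ cells. The part of free RNA or doublets in these counts was not tested. Sox8 was below 1 CPM in interstitial cells of all 3 libraries. Cells with markers of the Pax8 lineage, a group of supporting-like precursors of the rete testis, had 138 CPM of Sox9 (98.4 to 189) in 36 cells at E11.5, 109 (54.3 to 195) in 16 cells at E12.5, and 78.5 (46.5 to 124) in 54 cells at D6. Nr5a1-positive cells with a Pax8 UMI, whatever their class, had 383 CPM of Sox9 (324 to 450) in 33 cells at E11.5. They had 402 (325 to 492) in 19 cells at E12.5 and 94.7 (64.8 to 134) in 58 cells at D6. Nr5a1-positive cells without Pax8 had 421, 228, and 42.3 CPM.

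More of the Ptgds lay outside cells with supporting markers at D6, where that class was also smaller. These cells held 96.6%, 99.0%, and 42.3% of all Ptgds UMIs, and 83.9%, 84.5%, and 24.4% of all Sox9 UMIs, while they held 22.5%, 19.6%, and 3.67% of the UMIs of all genes. Unassigned cells held 2.02%, 0.0859%, and 20.7% of the Ptgds UMIs and 6.59%, 2.03%, and 33.0% of the Sox9 UMIs. The class rests on detected markers and was not corrected for the lower depth at D6. At D6 another 33.8% of the Ptgds UMIs were in 191 cells with steroidogenic markers, at 130 CPM (111 to 150) in 35.1% of cells, where Sox9 had 9.64 CPM (5.13 to 16.5). Of these cells, 110 had no supporting marker at all and held 79.6 CPM of Ptgds (60.6 to 103) in 29.1% of cells, and the 186 not called as doublets held 132 (113 to 153). In vivo, the 7 cells with steroidogenic markers at E12.5 had 0 Ptgds UMIs, with an upper exact Poisson limit of 48.7 CPM. Per Sox9 UMI, cells with supporting markers held 0.456 (0.432 to 0.481), 3.12 (2.99 to 3.25), and 1.99 (1.58 to 2.53) Ptgds UMIs, and the D6 cells with steroidogenic markers 13.5 (7.67 to 25.8).

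Nr0b1 and Gadd45g were also found in other classes. Nr0b1 in the Pax8-lineage class had 110 CPM (74.8 to 156) at E11.5 and 148 (83.0 to 245) at E12.5, from 31 and 15 UMIs, and 39.3 (17.9 to 74.5) at D6. At E12.5 this class held 3.28% of the Nr0b1 UMIs and 0.296% of the UMIs of all genes. The 7 cells with steroidogenic markers held 1.53% and 0.222%, and with so few cells the 2 classes cannot be ranked firmly. Nr0b1 in interstitial cells was at 22.5 CPM (19.8 to 25.6) and then, by E12.5, at 9.36, while in cells with supporting markers it was 24.3 and 33.8, and neither pair of intervals overlapped. Gadd45g, a stress and growth arrest gene used by many cell types, had 228 CPM (197 to 263) in 56 endothelial cells at E11.5 and 58.4 (39.4 to 83.4) in 34 at E12.5. Cells with supporting markers held 63.1%, 76.6%, and 24.0% of its UMIs at E11.5, E12.5, and D6.

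Co-detection was then examined in Nr5a1-positive cells. Ptgds was found in 59.0% (54.4 to 63.6) of cells with Sox9 and 7.01% (4.27 to 10.7) of those without it at E11.5, in 76.9% (73.1 to 80.4) and 9.69% (6.80 to 13.3) at E12.5, and in 47.1% (37.2 to 57.2) and 17.3% (14.3 to 20.7) at D6. Both were found in 271, 409, and 49 cells, where independence would give 182, 267, and 22.9. The intervals for cells with and without Sox9 did not overlap in any of the 3 libraries, and the median depth of both sets was alike in vivo, 13284 and 12810 UMIs at E11.5, and less so at D6, 6538.5 and 5672. After thinning to 2000 UMIs the shares with and without Sox9 were 34.8% and 9.66%, 72.6% and 26.7%, and 36.6% and 10.7%. Conversely, 93.4% and 92.3% of cells with Ptgds held Sox9 at E11.5 and E12.5, but 33.6% (26.0 to 41.8) at D6. Thinned to 2000 UMIs per cell, these shares were 72.0%, 54.6%, and 21.5%, so part of the contrast went with depth. Cells with Ptgds and without Sry or Sox9 were 2.60%, 3.85%, and 14.6% of Nr5a1-positive cells, not corrected for depth.

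**Figure D3:**
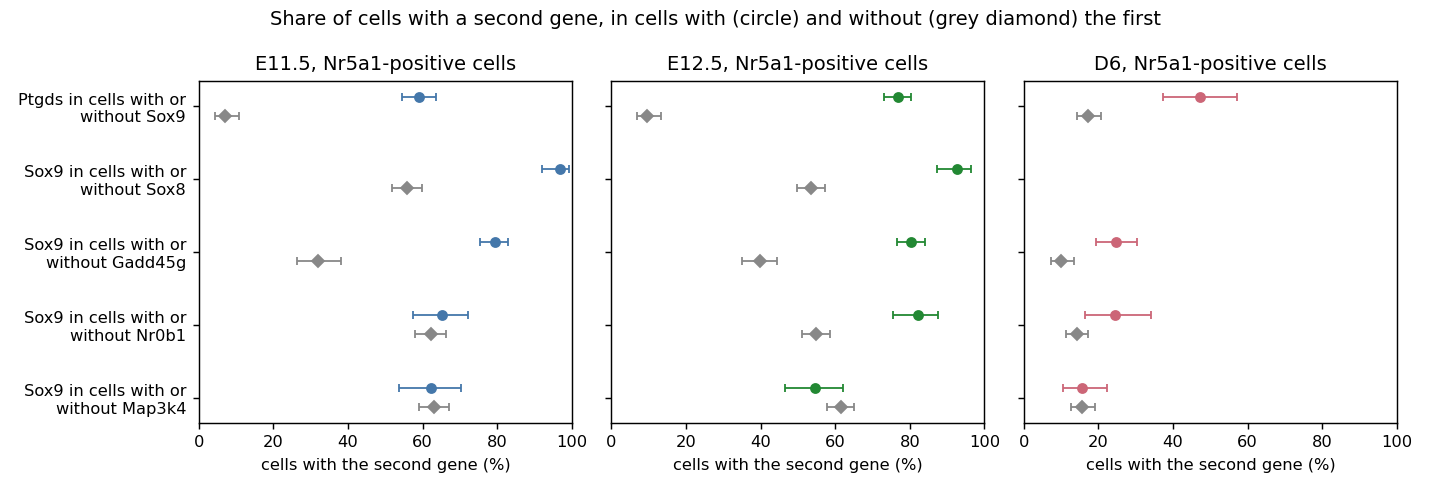
Share of Nr5a1-positive cells with a second gene, among cells with (circles) and without (gray diamonds) a first gene, with exact binomial 95% intervals. Ptgds was in 76.9% of cells with Sox9 and 9.69% of cells without it at E12.5, whereas the Sox9 share was about the same with or without Map3k4. Sox8 is left out at D6, where 5 cells held it.

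The share of cells with Ptgds grew with the Sox9 count of the cell. At E11.5 it was 7.01% of 271 cells with 0 Sox9 UMIs, 15.5% of 71 with 1, 36.6% of 71 with 2 to 3, 64.9% of 77 with 4 to 7, and 76.7% of 240 with 8 or more. At E12.5 it was 9.69% of 351, 38.2% of 110, 73.6% of 140, 91.5% of 189, and 97.8% of 93. At D6 it was 17.3% of 560 cells, 32.1% of 56, and 63.2% of 38, and 9 cells held 4 to 7 and 1 held more. For the same Sox9 count above 0, the share with Ptgds was therefore higher at E12.5 than at E11.5 in all 4 bins, at slightly lower median depth. The Ptgds level did not rise further from the bin of 4 to 7 to that of 8 or more. At E11.5 these had 347 CPM (311 to 385) and 324 (306 to 343). At E12.5 the level was lower in the top bin, with 1334 (1287 to 1382) and then 1169 (1110 to 1232), and these intervals did not overlap.

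**Figure D4:**
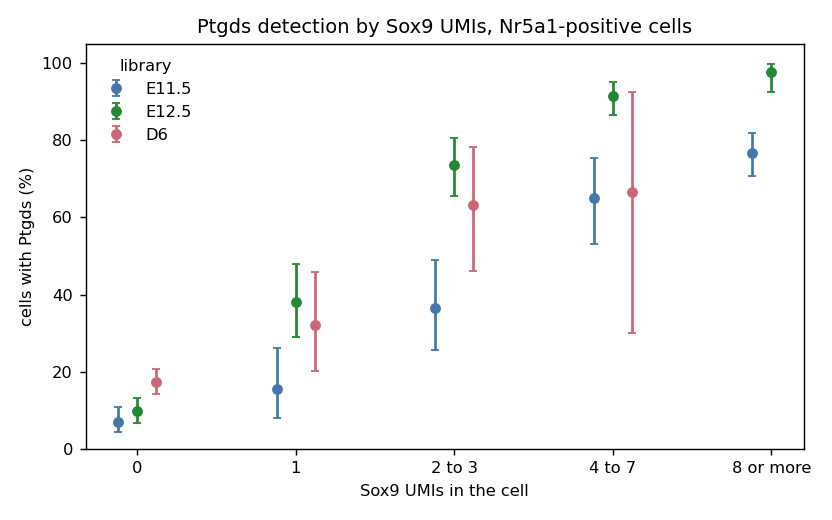
Share of Nr5a1-positive cells with at least 1 Ptgds UMI by the number of Sox9 UMIs of the cell at E11.5, E12.5, and D6, with exact binomial 95% intervals. The share climbed from 7.01% to 76.7% at E11.5 and from 9.69% to 97.8% at E12.5, and a D6 bin with 1 cell is not drawn.

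Most cells with Sox8 also held Sox9 and Ptgds in vivo. Of cells with Sox8, 96.8% (92.0 to 99.1) held Sox9 at E11.5 and 92.7% (87.3 to 96.3) at E12.5, against 55.9% and 53.6% of cells without Sox8. Ptgds was in 81.6% and 96.0% of cells with Sox8. All 3 were detected together in 101, 138, and 2 cells, where independence would give 31.2, 45.6, and 0.172. Of the 5 D6 cells with Sox8, 2 held Sox9.

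For Gadd45g, which acts upstream of Sry, the share of cells with Sox9 was higher among cells with it than without it. For Map3k4, also upstream of Sry, no such difference was seen. Sox9 was in 79.4% (75.5 to 83.0) of cells with Gadd45g and 31.9% (26.2 to 38.0) without it at E11.5, 80.4% (76.5 to 84.0) and 39.7% (35.1 to 44.5) at E12.5, and 24.6% (19.5 to 30.4) and 10.0% (7.31 to 13.4) at D6. With and without Map3k4 the Sox9 shares were 62.1% and 63.1%, 54.5% and 61.6%, and 15.7% and 15.6%, with overlapping intervals each time. For Nr0b1 they were 65.1% (57.4 to 72.2) and 62.2% (58.1 to 66.2) at E11.5, but 82.1% (75.5 to 87.5) and 54.9% (51.2 to 58.6) at E12.5, and 24.5% (16.4 to 34.2) and 14.1% (11.4 to 17.3) at D6.

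Counted over all 7 genes, single cells of D6 held fewer of them. None of the 7 was detected in 107 of 730, 185 of 883, and 214 of 664 Nr5a1-positive cells, and exactly 4 in 16.3%, 19.0%, and 3.46% of them. None of Sry, Sox8, Sox9, and Ptgds was detected in 34.0%, 35.4%, and 69.0% of them. No cell of any library held all 7. These counts were not corrected for the lower depth at D6.

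**Figure D5:**
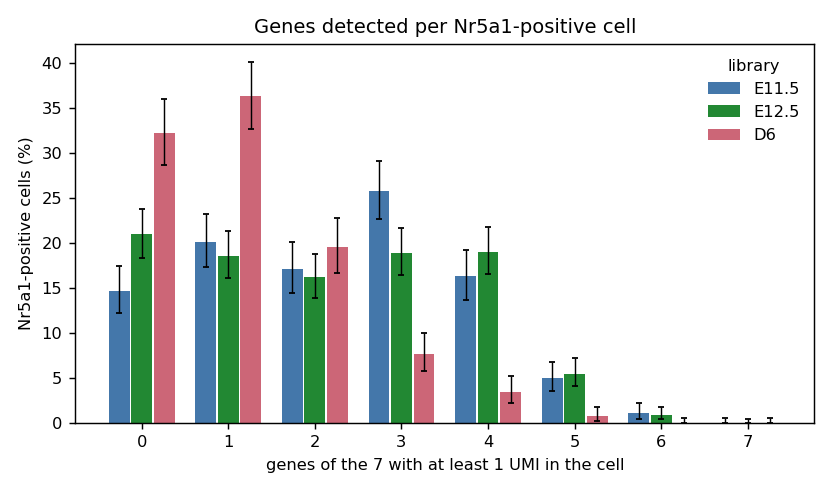
Number of the 7 genes with at least 1 UMI per Nr5a1-positive cell, as a share of such cells in each library (bars, axis from 0, with exact binomial 95% intervals). Cells with 3 genes were 25.8%, 18.9%, and 7.68% of the E11.5, E12.5, and D6 sets, and the D6 library was the least deep.

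Amh, the Müllerian inhibiting hormone and a direct target of Sox9, split the Nr5a1-positive cells further. In cells with Amh, Sox9 had 736 CPM (702 to 770), 425 (408 to 443), and 222 (182 to 268), and Ptgds 443 (417 to 470), 1317 (1286 to 1349), and 500 (439 to 566). In cells without Amh, Sox9 had 315 (302 to 328), 46.6 (41.1 to 52.7), and 23.1 (18.4 to 28.5). Thus at E11.5 many cells held Sox9 without Amh, in 293 of 559 such cells, and at E12.5 fewer, in 122 of 447. Of the 72 cells with Amh at D6, 68.1% (56.0 to 78.6) held Sox9.

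The genes whose pattern across cells was most like that of each member were named from E12.5, by Pearson r of ln(1 + UMIs per 10000) over 883 Nr5a1-positive cells and 9935 genes. The points are cells of 1 library and share its depth. For Sox9 these were Gstm2 (r = 0.76), Spint2 (0.75), and Aard (0.74), which had r = 0.71, 0.68, and 0.71 over 730 cells at E11.5 and 0.40, 0.45, and 0.39 over 664 cells at D6. For Ptgds they were Aard (0.88), Spint2 (0.87), and Cst9 (0.87), with lower values of 0.65, 0.63, and 0.54 at E11.5 and 0.43, 0.47, and 0.30 at D6. Sox8 was most like Aard, Cst9, and Serpine2 (each r = 0.42), with 0.42, 0.32, and 0.35 at E11.5, and was too rare at D6 for a value. Gadd45g was most like Akr1cl (0.55), Spint2 (0.53), and Ldhb (0.53), with 0.59, 0.54, and 0.47 at E11.5 and 0.39, 0.43, and 0.43 at D6. Sox9 and Ptgds themselves had r = 0.52, 0.69, and 0.35 in the 3 libraries. For Map3k4 and Nr0b1 the highest values were 0.18 and 0.25, too weak in sparse counts to name a pattern.

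The wider pathway was described with lists of genes around Sry and Sox9, compared in Nr5a1-positive cells. Of 16 Sox9 targets and male effectors, 15 passed the limit of 5 CPM between E11.5 and E12.5, of which 5 were at least 2-fold higher at E12.5 and 0 lower, beside 2.22% and 1.78% of all genes, with a median log2 ratio of 0.38 beside 0.09. These were Amh, from 47.9 to 472 CPM, Hsd17b3, an enzyme of testosterone synthesis, from 14.8 to 59.3, Cst9, Col9a3, and Cldn11, a tight junction protein. Fgf9, the signal that maintains Sox9, had 120 and 63.8 CPM, a log2 ratio of -0.91 (-1.05 to -0.78). At D6 against E12.5, 12 of the 15 were lower and 1, the Fgf9 receptor Fgfr2, was higher, beside 7.34% and 25.5% of all genes, with a median of -2.93 beside 0.32. Genes of this list could pass the limit of 5 CPM through E12.5 alone. Any that did remain in these counts and in the median, and their number was not determined. Between Nr5a1-positive and Nr5a1-negative cells of D6, 11 of the 16 passed it. Cst9 had 52.7 CPM at D6, Aard 58.2, and Dhh 9.11, while Fgf9 had 35.5, a log2 ratio of -0.85 that was -1.15 with TMM factors. Of this list, 10 genes are also the markers of the supporting class.

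Of 15 genes that act on Sry expression, 13 passed in Nr5a1-positive cells of both pairs of libraries. None was 2-fold different between E11.5 and E12.5, with Gata4 at 170 and 131 CPM and Wt1 at 310 and 231. At D6 against E12.5, 5 were higher and 0 lower, namely Zfpm2, the cofactor of Gata4, at 88.7 against 20.2 CPM, Nr5a1, the histone demethylase gene Kdm3a, and the receptor genes Insr and Igf1r. Of all genes 25.5% were higher and 7.34% lower, and the median log2 ratio of the 13 was 0.79 beside 0.32. Nr5a1 itself was used to choose these cells, and D6 was sorted on its reporter. Its ratio is thus no finding, though it enters the 5 and the median. Gata4 and Wt1 had log2 ratios of -0.09 (-0.23 to 0.06) and 0.00 (-0.11 to 0.11). Of 8 genes of prostaglandin D2 synthesis, reception, and removal, 2 passed, Pla2g4a and Hpgd, and neither was 2-fold different in these comparisons. Ptgs1 and Ptgs2, which make the substrate of Ptgds, had 7 and 3 UMIs at E12.5 and 15 and 2 at D6, and the receptor genes Ptgdr and Ptgdr2 had 0 in both.

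Among relatives of the members, Sox10, the remaining SoxE gene, had 9.84, 9.69, and 2.16 CPM, and Sox12 had 7.33, 27.9, and 102. Of the 7 relatives, 1, Sox12, was at least 2-fold higher from E11.5 to E12.5, beside 2.22% of all genes. At D6 against E12.5, 3 were higher, Sox12, Gadd45b, and Map3k1, beside 25.5% of all genes, with a median log2 ratio of 0.57 beside 0.32. In the same comparison 1, Sox10, was lower, beside 7.34%, and it passed the limit of 5 CPM only through E12.5. Of 11 genes of the opposing Wnt and granulosa pathway, 7 passed between E11.5 and E12.5, with 0 higher, beside 2.22% of all genes, and Wnt4 and Runx1 lower, beside 1.78%. At D6 against E12.5, 5 of 9 were higher, beside 25.5%, and 0 lower, beside 7.34%, with a median log2 ratio of 1.23 beside 0.32. With TMM factors Rspo1, 1 of the 5, had 0.92, below 2-fold. Wnt4, the signal that restrains Sox9 in the ovary, had 39.5, 13.2, and 391 CPM, a D6 log2 ratio of 4.89 (4.64 to 5.14) to E12.5. Wnt4 was also at least 2-fold higher over all retained cells of D6. Between Nr5a1-positive and Nr5a1-negative cells of D6 it was not 2-fold different. Foxl2, the granulosa cell factor, had 44 UMIs in D6 and 4 in E12.5 cells. This gene, 1 of the 5, thus passed the limit of 5 CPM only through D6.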

How the data were processed

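Droplet single-cell RNA-seq was measured in 4 XY libraries. The deposited matrices hold UMI counts per gene and cell on mm10, which the authors made with Cell Ranger 3.0.2 per the submitters' processing notes and 6.0.0 per the file headers. The values were checked to be whole numbers and were not normalized. Retained cells had more than 1000 and fewer than 4000 genes and under 10% mitochondrial UMIs for E10.5, as in the methods. The same limits for the next libraries in turn were 500, 5000, and 20%, then 2000, 5000, and 8%, then 1000, 4000, and 12%. They held 32508523, 24625441, 34173977, and 11906360 UMIs. Libraries shared at most 19 barcodes, and D6 shared 0 with the others.

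UMIs were summed over cells and divided by all UMIs of these cells (CPM), with exact Poisson 95% intervals for levels, exact conditional intervals for ratios, and exact binomial (Clopper-Pearson) intervals for shares. For shares of cells, a count of 0 allowed 3 counts, and for levels the upper limit is that of the Poisson interval. Cells are not replicates, so no p was computed. Ratios over all genes used those with a mean of at least 5 CPM over both groups, and 2-fold as the limit. A gene could therefore pass through a single group. Thinned shares are the exact mean over all draws of 2000 UMIs per cell, which left out 24, 0, and 3 Nr5a1-positive cells in the last 3 libraries. Scrublet (scanpy 1.11.5) marked 128, 17, 27, and 52 cells as doublets, which were kept. At E10.5 and D6 no usable automatic threshold was found, and the highest scores at the expected number were taken.

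A cell was placed in the class with most markers detected, given at least 3 and no tie. The genes named were the 7 members, Nr5a1, genes of the fixed pathway lists past 2-fold or with a stated role, the 3 genes most alike each member at E12.5, and markers that check a class. The Y-linked genes, Xist, and the bins of Sox9 count were added after the data were seen. The members and lists were chosen with earlier results of these data known. The methods ran on Python 3.11.15, with edgeR 4.0.16 for TMM factors and DESeq2 1.42.0 for size factors, and were checked on simulated data. RefSeq promoters were found for 6 of the 7 members, Sox9 not among them. Alternatives tried were TMM and size factor scaling, all barcodes, 1 set of limits for all libraries, doublets removed, 2 UMIs for detection or for Nr5a1, a mean over cells, other classes removed, no filter, and thinning.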

Additional observations from a re-analysis of the deposited data

How the results depend on the processing

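Of 119 values recomputed under other settings, 89 stayed within the counting interval of the reported value, or within 1.5 times of a share of genes, 30 did not, and 0 turned a called direction. All log2 ratios here are in Nr5a1-positive cells. From E11.5 to E12.5, Sox9 had -0.94 with TMM factors, -0.93 with DESeq2 size factors, -0.96 over all deposited barcodes, and -0.94 in cells with at least 2 Nr5a1 UMIs, Ptgds had 1.82 with TMM factors and 1.75 with at least 2 Nr5a1 UMIs, and with the latter limit Gadd45g had -0.92, no longer 2-fold, and Nr0b1 0.31. The Nr0b1 interval left out 0 with TMM, DESeq2, and all barcodes (-0.27, -0.26, and -0.29). From E12.5 to D6, Sox9 had -2.63 with TMM, -2.70 with DESeq2, and -2.59 with at least 2 Nr5a1 UMIs, and Ptgds -2.84, -2.91, and, over all barcodes, -2.37. Gadd45g had 0.53 with TMM, 0.46 with DESeq2, 0.95 over all barcodes, and 0.43 with at least 2 Nr5a1 UMIs, Map3k4 1.03 and, below 2-fold, 0.96 with TMM and DESeq2, and Nr0b1 -0.13 with DESeq2 and -0.11 with at least 2 Nr5a1 UMIs. The excess of cells with Ptgds among those with Sox9 over those without it, 52.0 points at E11.5 and 67.2 at E12.5, was 25.2 and 45.9 after thinning and 58.3 and 75.8 with at least 2 Nr5a1 UMIs, and at E12.5 72.4 when 2 UMIs were asked for detection. With no filter beyond 1 UMI in both groups, 5.82% of genes were at least 2-fold higher and 8.29% lower from E11.5 to E12.5, and with TMM factors 12.7% were lower from E12.5 to D6. The cause of these shifts was not tested. Limits of 4 or 5 supporting markers were added after seeing the data: they raised Sox9 in that class to 800 and 808 CPM and Ptgds to 375 and 399 at E11.5, and Ptgds with 5 markers to 1409 at E12.5 and 593 at D6. No paired analysis was possible because each condition had 1 library, and no library could be left out. Sry had at most 8 UMIs in any library, and Sox8 had 6 at D6, so these levels rest on few counts.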
